A study of Mus musculus with 24 samples.

Results

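The miR-200 family, miR-205 and miR-203 are microRNAs of epithelial cells, and 8 of their mature strands were measured among the 696 mouse miRNAs on each array. Members were taken by name: mmu-miR-200a-3p, mmu-miR-200b-3p, mmu-miR-200c-3p, mmu-miR-141-3p, mmu-miR-141-5p, mmu-miR-429-3p, mmu-miR-205-5p and mmu-miR-203-3p, written without the species prefix from here on. Their levels came from 24 single-colour Agilent arrays of total RNA from eyes of C57BL/6J mice at an age of 34 days. A diffuser over the right eye had blurred its image for 10 days from postnatal day 24 (form deprivation, a model of short-sightedness), and the untreated left eye of the same animals was the control. The arrays covered whole eye (6 control, 6 myopia), retina (3 titled control, 3 titled myopia) and sclera (3 titled control, 3 titled myopia), from 15 mice, of which 6 gave whole eyes, 9 retina and 9 sclera.

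No group carried a genetic change, and every control was the fellow eye of a treated one. Whole-eye arms follow the title, source name and phenotype field, although a sentence in the description reads the other way. For retina and sclera the titles and sample codes give one arm while 3 other labels (source name, phenotype field and that sentence) give the other, so these arms are called titled control and titled myopia and no direction of treatment is drawn from them. The labels do not say which animals an array held or whether RNA was pooled, and the p-values therefore cover only variation among the samples at hand, which may be partly technical. Each of the 3 slides held 4 whole-eye, 2 retina and 2 sclera arrays, and each tissue and arm had its own positions on the slide, so position and group cannot be told apart. Between 274 and 401 miRNAs were detected per array. The dissections were compared on marker lists. All 8 photoreceptor and neuronal miRNAs were higher in retina than in sclera, with miR-9-5p at 4.91 on the log2 scale. All 8 fibroblast and mesenchymal miRNAs were lower, with miR-199a-3p at -8.01 (limma, adjusted p = 1.12e-18 and 2.99e-16). Of all 426 tested miRNAs 58.7 percent were higher in retina and 30.5 percent lower. These differences do not show that the tissues were pure. miR-96-5p and miR-124-3p of the first list were detected on all 6 sclera arrays, and miR-199a-3p on all 6 retina arrays.

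As background, the miR-200 family keeps epithelial cells epithelial by repressing the transcription factors Zeb1 and Zeb2, which in turn repress the miR-200 genes. miR-205 belongs to stratified and glandular epithelia and shares Zeb1 and Zeb2 as targets, and miR-203 is a skin miRNA that restrains p63 as keratinocytes leave the basal layer. In the eye, surface ectoderm gives the cornea, conjunctiva and lens, whereas the neural retina is neural ectoderm and the stroma of the sclera is fibroblast tissue.

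The mature sequences are shown because the family is defined by the seed, bases 2 to 8 from the 5′ end, which pairs with target mRNAs. They are RefSeq sequences for GRCm38.p6, all 8 members matched by name, and capitals mark the seed.
miR-200a-3p: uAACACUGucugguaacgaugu
miR-141-3p: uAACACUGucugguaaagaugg
miR-200b-3p: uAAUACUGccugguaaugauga
miR-200c-3p: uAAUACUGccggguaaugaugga
miR-429-3p: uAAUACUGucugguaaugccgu
miR-141-5p: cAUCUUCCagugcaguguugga
miR-205-5p: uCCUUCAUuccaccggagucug
miR-203-3p: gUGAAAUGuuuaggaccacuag

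The family has 2 seeds. miR-200a-3p and miR-141-3p carry AACACUG, and miR-200b-3p, miR-200c-3p and miR-429-3p carry AAUACUG. Among the 1738 mature mouse miRNAs of the table, no other miRNA has either seed. Within the seed the groups differ at 1 base (C4U from miR-200a-3p to miR-200b-3p, positions counted from the 5′ end of the miRNA). The closest pairs differ at 2 positions each, C17A and U22G from miR-200a-3p to miR-141-3p and U11G and A22G from miR-200b-3p to miR-200c-3p, where miR-200c-3p is also 1 base longer. Array probes of this kind pair with the 3′ part of the miRNA, and the probes of miR-200a-3p have 2 mismatches to miR-141-3p, so some exchange of signal between near relatives cannot be told apart from their own signal.

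The genes lie in clusters. On GRCm38.p6, Mir429 (chr4:156053905-156053987), Mir200a (chr4:156054896-156054985) and Mir200b (chr4:156055681-156055750) lie on the minus strand inside the lncRNA gene Gm13648, with 908 and 695 bases between neighbouring hairpins. Mir141 (chr6:124717914-124717985) and Mir200c (chr6:124718322-124718390) lie on the minus strand of chromosome 6, 336 bases apart, inside no other gene of the table, and the nearest protein-coding gene is Phb2. Mir205 (chr1:193507463-193507530, minus strand) lies inside its host lncRNA gene Mir205hg. Mir203 (chr12:112130880-112130955, plus strand) lies inside no other gene of the table, and its nearest protein-coding neighbour is Aspg, 3307 bp away. The miR-141 hairpin is shown because its arms behaved differently in retina. Capitals mark the arms, miR-141-5p at bases 6 to 27 and miR-141-3p, the guide strand, at bases 48 to 69.
Mir141: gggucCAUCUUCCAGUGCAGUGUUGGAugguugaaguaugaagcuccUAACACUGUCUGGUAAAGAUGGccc

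Levels are log2 values with 0 at the 75th percentile of each array, taken over 237 miRNAs that all 24 arrays detected, and undetected low signals are held at a floor of -7.69. Levels are compared for a given miRNA between arrays, never between miRNAs, because probes differ in brightness. By detection the members fell into 3 patterns. miR-203-3p was detected on all 24 arrays. miR-200a-3p, miR-200b-3p, miR-200c-3p, miR-205-5p and miR-429-3p were detected on all 12 whole-eye and all 6 sclera arrays, and miR-141-3p on all 12 and on 5 of 6, missing on sclera titled control 3. In retina, miR-200a-3p, miR-200c-3p and miR-141-3p were detected on 0 of 6 arrays, miR-200b-3p and miR-205-5p on 1 of 6, and miR-429-3p on 4 of 6. miR-141-5p ran the other way, with 4 of 6 retina arrays and 0 of the 18 others.

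**Figure D1:**
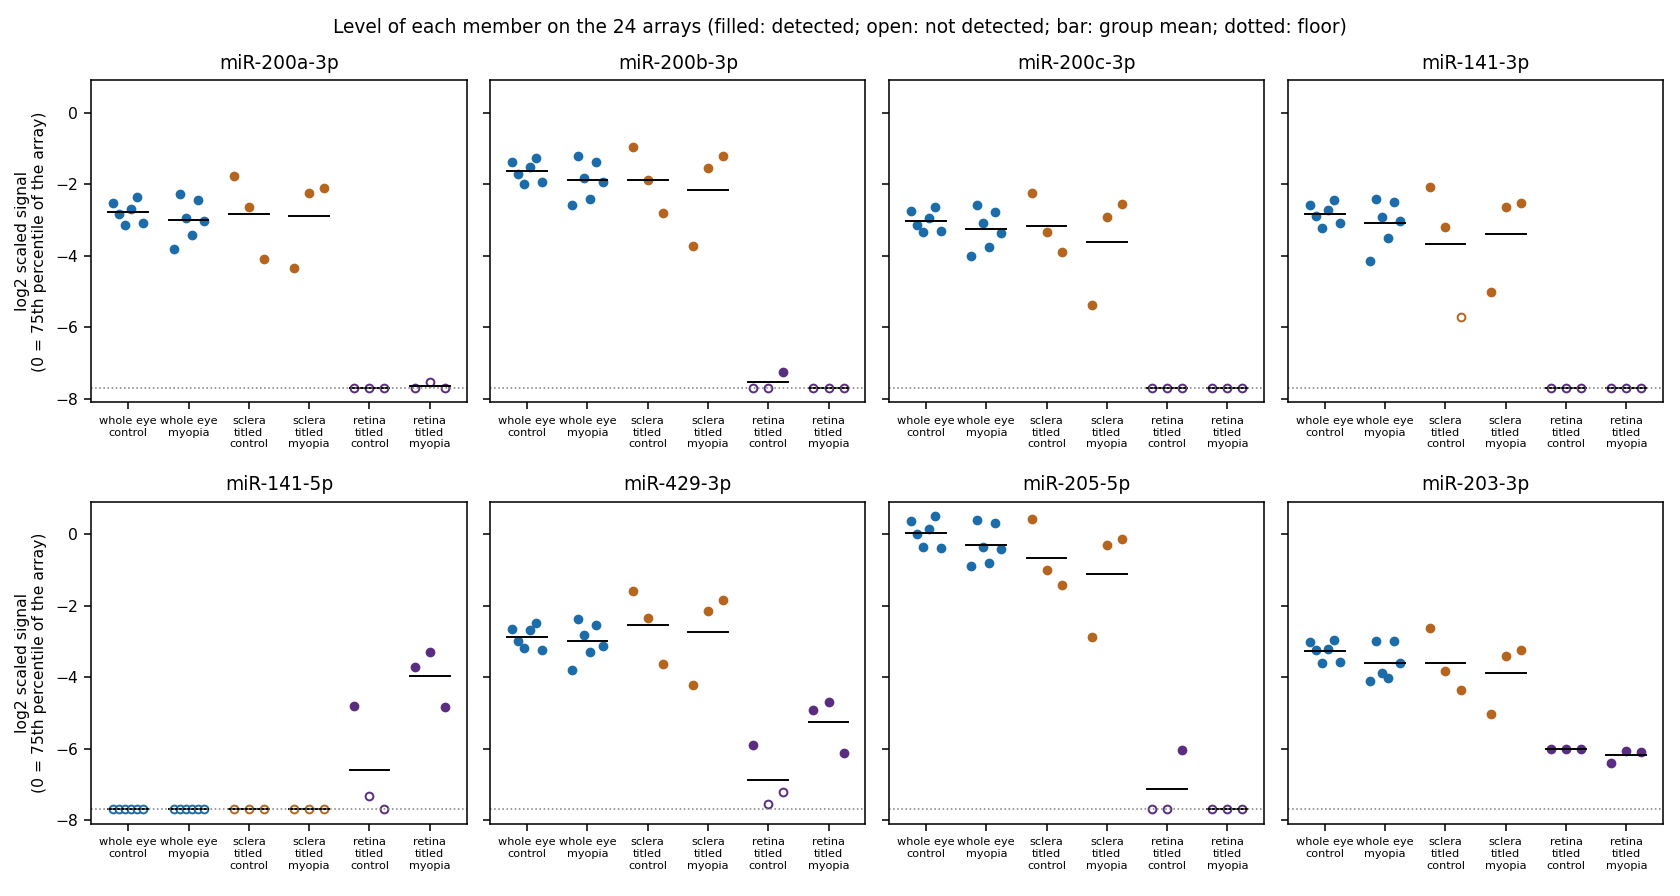
Log2 scaled signal (y axis, 0 = 75th percentile of the array) of the 8 members on each array by group (x axis); filled points were detected, open points were not, bars are group means and the dotted line is the floor of -7.69. Whole-eye and sclera points overlap for all members, retina points lie lower for 7 members, and miR-141-5p leaves the floor only in retina.

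Retina held far less of the guide strands than sclera. All 8 members passed, with 7 lower in retina and miR-141-5p higher (limma over all 24 arrays, Benjamini-Hochberg adjusted p under 0.05). Of the 426 miRNAs tested, 30.5 percent were lower in retina and 58.7 percent higher. The median of the 8 members was -4.24 on the log2 scale against 0.81 over all tested miRNAs. miR-200a-3p, miR-200b-3p, miR-200c-3p, miR-141-3p and miR-205-5p entered the test only through whole eye and sclera, and miR-141-5p only through retina titled myopia, so these 6 had to differ and the count and median only describe them. Their fitted differences depend on the common floor and give no order among them. As the RNA is of bulk tissue, fewer epithelial cells and less of these miRNAs per cell cannot be told apart.

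miR-205-5p was measured on a single retina array. On the 6 sclera arrays its level was 0.42 on titled control 1, -1.004 on titled control 2 and -1.41 on titled control 3, and -2.88, -0.31 and -0.14 on titled myopia 1 to 3, while on 5 of 6 retina arrays it was at the floor and on retina titled control 3 at -6.03. The groups did not overlap. The fitted difference, with 5 retina values at the floor, was -6.53 (SE 0.42, adjusted p = 6.28e-12). miR-200b-3p, from the chromosome 4 cluster, ran from -3.71 to -0.95 in sclera and was at the floor in retina except on titled control 3 (-7.24). On that array 0 of 10 spots of either of its probes were well above background. The fitted difference of miR-200b-3p, again with 5 retina values at the floor, was -5.61 (SE 0.36, adjusted p = 4.38e-12).

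The remaining chromosome 4 and chromosome 6 guides followed. miR-200a-3p spanned -4.34 to -1.76 in sclera, and its signal on the 6 retina arrays was not well above background. Under this processing sclera was at least 68.6-fold higher (fitted difference -4.81, adjusted p = 1.17e-10). For miR-200c-3p sclera was at least 84.5-fold higher (fitted -4.32, adjusted p = 6.66e-10) and for miR-141-3p at least 48.8-fold higher (fitted -4.17, adjusted p = 6.23e-08). These bounds set the sclera mean against the lowest detected signal of each retina array, or the miRNA's own value where higher. They exceed the fitted values because the fit uses the floor common to all arrays, which is higher than the retina arrays' own. The lowest detected signal is that of another miRNA with other probes, so the bounds are no strict minimum. With normexp background correction the 3 differences were -1.90, -1.77 and -1.77 on the log2 scale.

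miR-429-3p and miR-203-3p kept a retina signal. miR-429-3p was -5.89, -7.54 and -7.22 on retina titled control 1 to 3 and -4.92, -4.69 and -6.11 on titled myopia 1 to 3, against -4.21 to -1.59 in sclera. The tissues lay apart on every array, with a difference of -3.44 (SE 0.41, adjusted p = 1.20e-07). miR-203-3p was detected on every retina array, at -6.02, -6.01 and -6.00 in titled control and -6.39, -6.06 and -6.10 in titled myopia. It was the tightest of the members detected on most retina arrays. Sclera lay at -5.04 to -2.62, and the difference was -2.35 (SE 0.30, adjusted p = 3.07e-07). Its retina signal came mostly from 1 of its 2 probes, which was above background on 5 to 9 of 10 spots per array, the other on 0 of 10. For miR-429-3p all 10 spots of both probes were above background on titled myopia 1 and 2. On the other arrays that detected miR-429-3p, its 2 probes had 0 and 4 of 10 (titled control 1) and 0 and 1 of 10 (titled myopia 3).

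All 8 calls were made again within each of the 3 slides, where miR-205-5p was at -6.46, -7.04 and -6.09 and miR-203-3p at -2.37, -2.43 and -2.25. Leaving out any array kept all 8. Members that entered only through the tissue where they were high had to differ here too, so for them these repeats only describe. Of all calls 65.8 percent were higher in retina, and between 51.1 and 53.6 percent with all miRNAs as the scaling set, quantile normalization or the authors' value table. With normexp background correction 21.8 percent were higher, and the median difference over every miRNA tested went from 0.81 to -0.87. Under normexp the 7 lower members kept their direction and call, with differences of -2.77 to -1.60, and miR-141-5p changed direction (below).

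Whole eye differed from retina in the same way: 7 members were higher in whole eye and miR-141-5p lower (limma, adjusted p under 0.05; of the 426 tested miRNAs 23.0 percent were higher and 65.0 percent lower). This comparison shares its retina arrays with the previous one, so the values are set side by side and no agreement is counted. The members that had to differ there had to differ here too. miR-205-5p had whole-eye levels of -0.90 to 0.51 with a median of -0.17, and miR-200b-3p of -2.57 to -1.20 with a median of -1.76. Against retina values that lay at the floor on 5 of 6 arrays, the fitted differences were 7.30 (SE 0.37, adjusted p = 2.80e-13) and 5.86 (SE 0.31). Under this processing whole eye was at least 100.1-fold higher for miR-200c-3p, 72.8-fold for miR-141-3p and 67.9-fold for miR-200a-3p. These bounds were set as for sclera and are likewise no strict minimum. With normexp background correction the differences were 1.1002, 1.21 and 1.23 on the log2 scale, in the same order. miR-429-3p differed by 3.13 (SE 0.36, adjusted p = 6.85e-08) and miR-203-3p by 2.66 (SE 0.26, adjusted p = 7.20e-09).

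**Figure D2:**
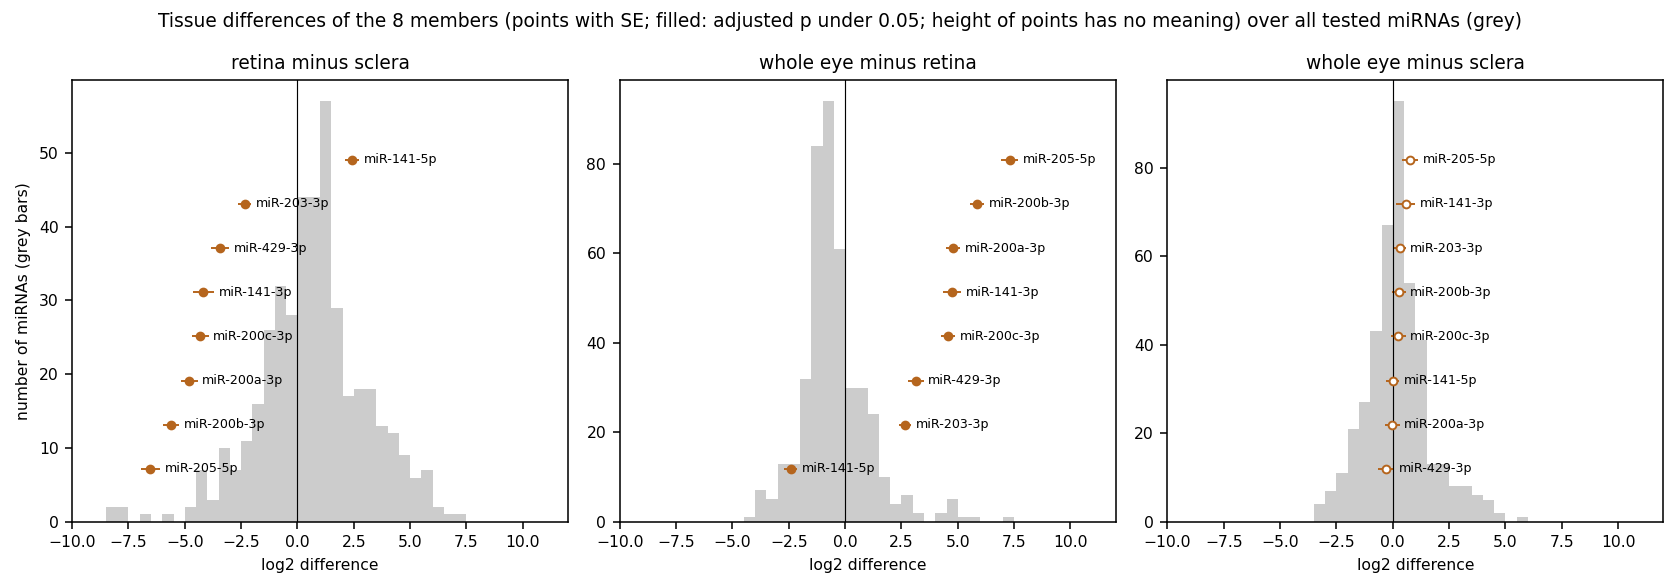
Log2 differences (x axis) of the 8 members between tissues, as points with standard errors, filled where the adjusted p is under 0.05, over a histogram of all 426 tested miRNAs (grey bars, y axis: number of miRNAs). Against retina, 7 members lie far out on the side of sclera or whole eye (2.35 to 7.30 log2 units) and miR-141-5p on the other. Between whole eye and sclera 7 members lie at -0.31 to 0.77, and miR-141-5p is at 0 because it was held at the floor in both.

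Between whole eye and sclera no member passed (0 of 8, limma; 1 at an unadjusted p under 0.05), where 40.1 percent of all tested miRNAs were higher in whole eye and 30.8 percent lower. miR-141-5p was held at the floor on every whole-eye and sclera array and could not pass, so the count rests on the other members. Of these, miR-205-5p came nearest at 0.77 (SE 0.37, adjusted p = 0.0683). miR-141-3p was at 0.57, miR-203-3p at 0.31, miR-200b-3p at 0.26, miR-200c-3p at 0.25, miR-200a-3p at -0.015 and miR-429-3p at -0.31, with standard errors of 0.26 to 0.41. For comparison, the cornea and lens list (miR-184-3p, miR-31-5p, miR-31-3p; miR-184 is abundant in corneal and lens epithelium) was higher in whole eye in 3 of 3 members, by 2.05, 2.26 and 2.08 (adjusted p = 0.00215, 4.77e-07 and 6.18e-06).

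This comparison turned on single arrays and settings. Without sclera titled control 1, miR-205-5p (1.04, adjusted p = 0.0180) and miR-141-3p (0.97, adjusted p = 0.0328) were called higher in whole eye. miR-205-5p was also called without sclera titled myopia 2 (0.97, adjusted p = 0.0329) or titled myopia 3 (1.01, adjusted p = 0.0233), and within each slide, where it was 0.94, 0.97 and 0.40. With normexp the median difference over every miRNA tested went from 0.15 to -0.997. There 315 of all 426 miRNAs were called lower in whole eye. So were 6 of 8 members, near that share, among them miR-429-3p at -0.77 and miR-203-3p at -0.71. The 6 include miR-141-5p at -1.24, which was undetected in both tissues. miR-205-5p was at 0.55 (adjusted p = 0.0731). Of all calls 56.6 percent were higher in whole eye, 13.2 percent with normexp, and 39.7 to 48.1 percent with the other scalings.

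Ordered by group mean, whole-eye control was highest for 6 of the 7 members other than miR-141-5p, and sclera titled control for miR-429-3p. Neighbours among the whole-eye and sclera groups overlapped for every member, so no order among these 4 groups stood out from the spread. The next step down, to the retina groups, was free of overlap for all 7. miR-200a-3p, miR-200b-3p, miR-200c-3p, miR-141-3p and miR-205-5p entered only through whole eye and sclera, so the gap only describes them. Such gaps were not counted over all miRNAs, of which 30.5 percent of those tested were called lower in retina than in sclera. For miR-205-5p the group means were 0.05 ± 0.37 (SD, n = 6) in whole-eye control, -0.29 ± 0.55 (n = 6) in whole-eye myopia, -0.67 ± 0.96 (n = 3) in sclera titled control and -1.11 ± 1.54 (n = 3) in sclera titled myopia. For miR-200a-3p they were -2.77 ± 0.31, -2.98 ± 0.58, -2.83 ± 1.18 and -2.89 ± 1.25 in the same order, and for miR-200c-3p -3.01 ± 0.29, -3.25 ± 0.55, -3.15 ± 0.83 and -3.60 ± 1.54. For these 3 members the SD was larger in each sclera group than in either whole-eye group.

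Ratios between members within an array do not depend on scaling. Of the 21 pairs among the 7 members, 6 had ranges that did not overlap between whole eye and sclera, against 56.5 percent of all 29890 pairs of the 245 miRNAs detected on those 18 arrays. The pair farthest apart, chosen after its values were seen, was miR-205-5p over miR-429-3p. The log2 ratio was 2.45 to 3.04 on whole-eye arrays and 1.32 to 2.23 on sclera arrays, 1.07 lower in sclera. Within slides it was 1.15, 1.33 and 0.75 lower. miR-429-3p also lay lower relative to miR-200b-3p in whole eye, by 0.56, although both are in the chromosome 4 cluster, and miR-200b-3p over miR-200c-3p, from different chromosomes, differed by 0.010.

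Sclera arrays varied more in these miRNAs than in nearly any others. The SD over the 6 arrays was 0.86 to 1.17 for the 6 members detected on all of them, ranks 2 to 9 among 266 miRNAs, where the median SD was 0.28 and the 90th percentile 0.60. The large spread was not particular to the members. Of the photoreceptor and neuronal list, miR-96-5p had an SD of 1.204, miR-124-3p of 1.07, miR-183-5p of 0.84 and miR-182-5p of 0.81. Of the cornea and lens list, miR-184-3p had an SD of 1.101. miR-141-3p had an SD of 1.48 with 1 array undetected. The highest array was 9.85-fold above the lowest for miR-205-5p and 5.35-fold for miR-203-3p. In whole eye the SDs were 0.41 to 0.50, ranks 17 to 25 of 288, with a median of 0.14. No test was made of these ranks.

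**Figure D3:**
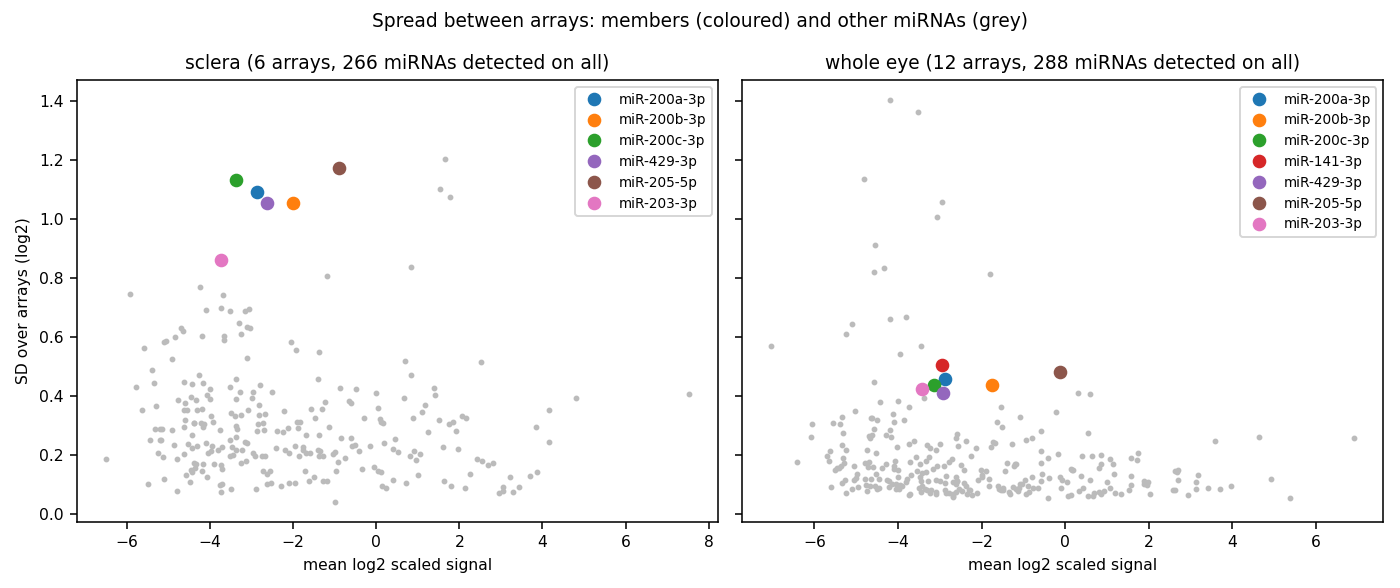
SD over arrays (y axis, log2) against mean log2 scaled signal (x axis) for miRNAs detected on all 6 sclera arrays (left) or all 12 whole-eye arrays (right), members coloured and others grey. In sclera the 6 members detected throughout lie at SDs of 0.86 to 1.17 against a median of 0.28, and in whole eye 7 members lie at 0.41 to 0.50 against 0.14. Some other miRNAs lie as high in sclera, among them miR-96-5p at 1.204 and miR-184-3p at 1.101.

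The members rose and fell together from array to array. Sclera titled control 1 was highest for all 7, with miR-200a-3p at -1.76 and miR-429-3p at -1.59. Titled myopia 3 was next for all 7 (-2.10 and -1.83), then titled myopia 2 (-2.24 and -2.14) and titled control 2 (-2.63 and -2.35). Titled control 3 (-4.10 and -3.64) and titled myopia 1 (-4.34 and -4.21) were the lowest for every member. The order crosses the titled arms. Over the 6 arrays, Pearson's r between members was 0.829 to 0.995 over the 21 pairs, as a description of values that share array and scaling.

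The lowest arrays were not alike in composition. Relative to the sclera median, titled myopia 1 was at -2.24 to -1.43 over the members. Titled control 3 was at -0.75 in miR-203-3p but at -2.81 in miR-141-3p, whose signal of 8.10 was undetected. miR-200a-3p, miR-141-3p and miR-429-3p, which do not all share a seed, were further down on titled control 3 than miR-200b-3p and miR-200c-3p.

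Of the marker lists for other cell types, the cornea and lens list had the members' order of arrays in its summed signal. The summed signal of the 7 members, in percent of the array's 75th percentile, was 309, 140.8 and 79.4 on titled control 1 to 3 and 40.1, 198 and 231 on titled myopia 1 to 3. The cornea and lens list summed to 770, 217 and 213 and then to 112, 443 and 544, with 2 to 3 of its 3 members detected. The skeletal muscle list ran from 373 to 712 and was highest on titled myopia 1, where the members were lowest. The photoreceptor and neuronal list ran from 308 (titled control 3) to 1651 (titled control 2), the pigment epithelium list from 695 to 1645 (titled control 3), and the fibroblast list from 1898 to 2316. miR-499-5p of the muscle list was detected on no sclera array and every fibroblast marker on all 6. The part of these cell types in the members' spread was not tested.

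**Figure D4:**
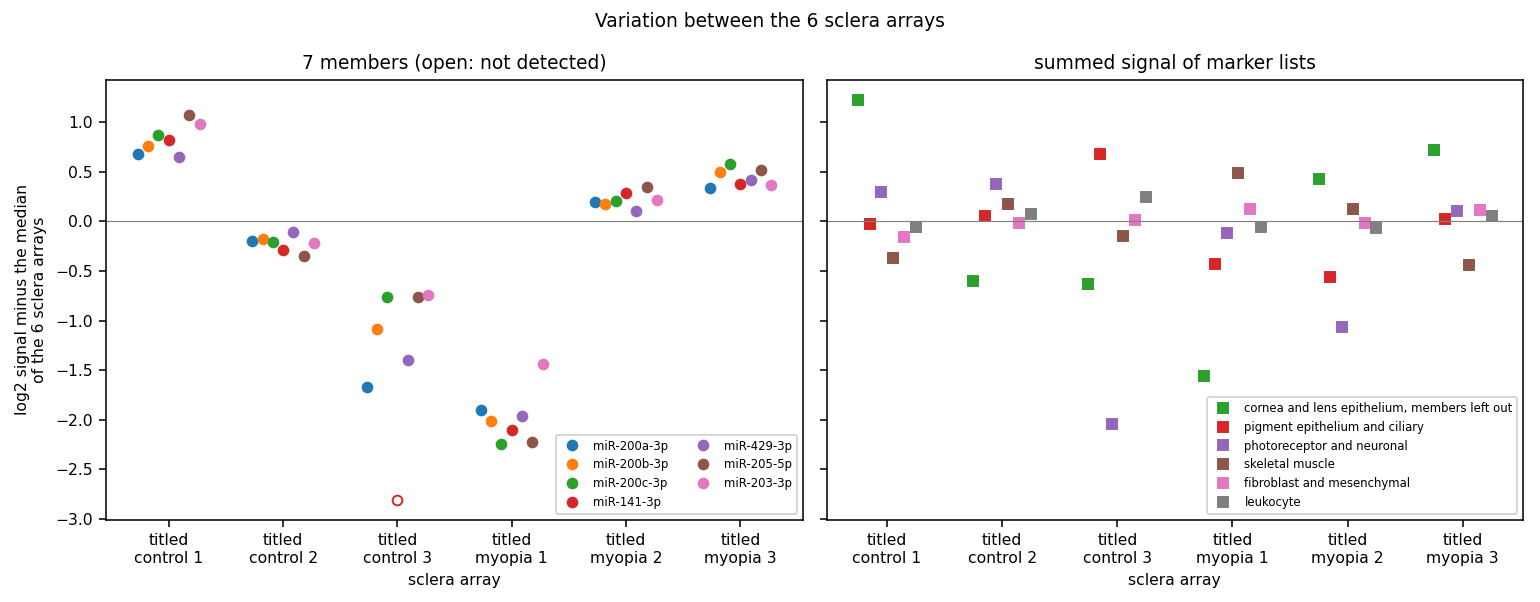
Log2 signal minus the median of the 6 sclera arrays (y axis) for each array (x axis): left, the 7 members, open where undetected; right, the summed signal of 6 marker lists. The members span -2.81 to 1.07 around their medians, and the cornea and lens list (green squares) is highest on titled control 1 and lowest on titled myopia 1 as the members are. The sum of that list is mostly miR-184-3p.

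The miRNA most like the members over the sclera arrays was miR-184-3p, by mean Pearson r with the 6 members detected on all of them (0.946, 6 arrays, 260 candidates). miR-20a-5p (0.939), miR-135a-5p (0.791), miR-19b-3p (0.781) and miR-106b-5p (0.698) followed. With miR-203-3p alone, the only member detected on all 24 arrays, miR-184-3p was again nearest in sclera (0.975). Over the 24 arrays the nearest to miR-203-3p were miR-193b-3p (0.843), miR-184-3p (0.834), miR-2132_v15.0 (0.831), miR-143-3p (0.815) and miR-2138_v15.0 (0.806), a likeness that includes the gap between tissues. In whole eye the names were others: miR-322-5p (0.955), miR-676-3p (0.936) and miR-148a-3p (0.926) led over 12 arrays.

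The titled arms of sclera did not separate. No member passed (0 of 7 tested, limma; background 0 percent higher and 0 percent lower of 311), with differences from -0.29 for miR-200c-3p to 0.44 for miR-141-3p and standard errors of 0.67 to 1.14. Every member's arms overlapped. Leaving out titled control 1 or titled myopia 1 turned the sign of several members, and the values over arrays left out ran from -0.79 to 1.27.

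In whole eye, where the arms are read from title and phenotype, no member passed between myopia and control (0 of 7, limma; background 10.3 percent higher and 0 percent lower of 341; 0 members at an unadjusted p under 0.05). Differences ran from -0.26 for miR-205-5p (SE 0.22, adjusted p = 0.511) to -0.033 for miR-429-3p (SE 0.21), with miR-203-3p at -0.25 (SE 0.19, adjusted p = 0.443). The arms overlapped in every member. All 7 were negative, but the slides differed: on slide 1 the values were -1.04 to -0.72, on slide 2 0.10 to 0.27 and on slide 3 -0.03 to 0.36, with 0 calls on each. Whole-eye myopia 1, on slide 1, was the lowest whole-eye array for all 7 members, and without it the differences ran from -0.14 to 0.13. After quantile normalization miR-203-3p was called lower (-0.45, adjusted p = 0.0432). There the median difference over every miRNA tested went from 0.08 to -0.12, and 33.3 percent of all calls were higher, against 100 percent before.

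Whole-eye members were nearly proportional across arrays, with r from 0.857 (miR-429-3p and miR-203-3p) to 0.994 (miR-200b-3p and miR-200c-3p) over 12 arrays. The log2 ratio of miR-200b-3p to miR-200c-3p, transcribed from different chromosomes, had an SD of 0.047 there, and that of miR-141-3p to miR-200c-3p, 336 bases apart, 0.12.

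miR-141-5p, the minor strand of miR-141, was seen only in retina. Its summed signal was 57.3, 10.6 and -6.59 on retina titled control 1 to 3 and 134, 229 and 55.2 on titled myopia 1 to 3, in scanner units after background subtraction. It was detected on titled control 1 and on the 3 titled myopia arrays. On the 18 whole-eye and sclera arrays the signal was -10.6 to 3.23 and undetected throughout. Retina was at least 4.36-fold higher than sclera (fitted difference 2.41, SE 0.32, adjusted p = 6.28e-07) and at least 4.42-fold higher than whole eye (adjusted p = 9.45e-08). It entered these tests only through retina titled myopia, so it had to differ. Within slides 1, 2 and 3 the difference from sclera was 3.42, 2.39 and 1.43. With normexp it was -1.06 (adjusted p = 0.0104), and the authors' deposited values gave 0.56 (adjusted p = 0.0519). Whole eye minus retina was -0.19 with normexp (adjusted p = 0.742), so neither the call nor the direction held across processing.

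The guide strand was not detected on the same arrays. The summed signal of miR-141-3p was 1.28, 0.30 and 7.22 on titled control 1 to 3 and 1.18, 9.64 and 1.84 on titled myopia 1 to 3, undetected on all 6. In whole eye and sclera the strands stood the other way round, with miR-141-3p detected on 17 of 18 arrays and miR-141-5p on 0. As the strands have different probes, their signals are not compared as levels. The pattern over tissues was shared by 25 of the 696 miRNAs, which were detected on at least 4 of 6 retina arrays and on no other array.

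Other strands of the member hairpins were read where the array had them, 4 in all. miR-200a-5p behaved as miR-141-5p did, with signals of 92.5, 19.3 and -1.17 on retina titled control and 190.1, 259 and 91.9 on titled myopia, detected on 4 of 6 retina arrays and on no other array. No test is given for it, since it could be tested only through retina titled myopia, where it was high. Its guide, miR-200a-3p, was at -1.03 to 12.1 on the same arrays, undetected. miR-200b-5p, miR-200c-5p and miR-203-5p were detected on 0 of 24 arrays.

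**Figure D5:**
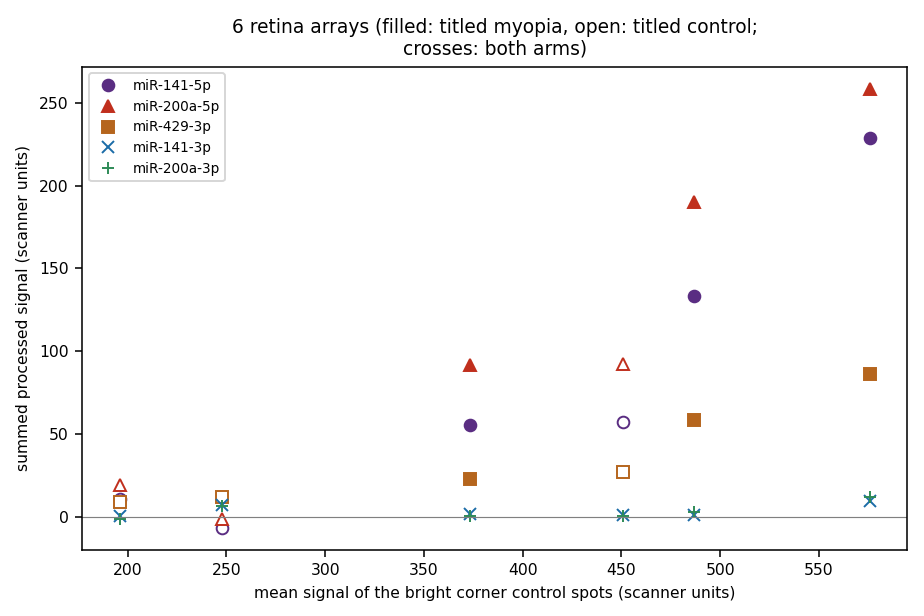
Summed processed signal (y axis, scanner units) of miR-141-5p, miR-200a-5p, miR-429-3p, miR-141-3p and miR-200a-3p on the 6 retina arrays against the mean signal of the bright corner control spots (x axis, scanner units), filled for titled myopia and open for titled control, crosses for the undetected guides of both arms. miR-141-5p, miR-200a-5p and miR-429-3p climb with the corner spots to 229, 259 and 86.5, and the guides miR-141-3p and miR-200a-3p stay at 12.1 or below.

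The bright corner spots, control spots of the array, moved with these strands. Their mean signal was 451, 196 and 248 on retina titled control 1 to 3 and 487, 576 and 373 on titled myopia 1 to 3. Across the 6 retina arrays r with log2 level was 0.958 for miR-141-5p, 0.971 for miR-429-3p and 0.907 for miR-200a-5p, against a median of -0.17 over 379 miRNAs and -0.45 for miR-203-3p. The corner spots were at 104 to 163 on sclera arrays. On whole-eye myopia 2 they reached 487, as bright as on retina titled myopia 1, and there miR-141-5p was at 3.23 and undetected, against 134. The part of this signal in the retina values was not tested. The miRNAs most like miR-141-5p over the retina arrays, looked up after its values were seen, were miR-673-3p (r = 0.993), miR-341-3p (0.993), miR-105 (0.991), miR-324-3p (0.991) and miR-1936 (0.985).

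Between the titled arms of retina 3 members could be tested and none passed (limma; background 0 percent higher and 0 percent lower of 396; 2 members at an unadjusted p under 0.05, 20 miRNAs in all). miR-141-5p was 3.37 higher in titled myopia (SE 1.33, adjusted p = 0.537), miR-429-3p 1.59 higher (SE 0.53, adjusted p = 0.537) and miR-203-3p -0.23 (SE 0.15, adjusted p = 0.679). Titled control 1 lay within the range of titled myopia for miR-141-5p and miR-429-3p. Without it both were called (4.60, adjusted p = 0.0469, and 2.02, adjusted p = 0.0484). This array also had the brightest corner spots of its arm.

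In the fit of all 24 arrays, retina minus sclera and retina minus whole eye in the titled arm effect were both 2.66 for miR-141-5p (SE 0.65, adjusted p = 0.0441, and SE 0.56, adjusted p = 0.0143), where 1.64 and 1.17 percent of tested miRNAs were called higher. These values do not show a difference between tissues. The strand was at the floor on every whole-eye and sclera array and entered the test only through retina titled myopia, so each value restates the retina arm difference, not called above, with the spread understated. The first call was lost without any one of 22 of the 24 arrays, all but retina titled control 1 and retina titled myopia 3, and the second without retina titled control 2 or 3 or titled myopia 1 or 2. With the arms read from the phenotype field both were -2.66. For miR-429-3p the corresponding values were 1.84 (SE 0.82, adjusted p = 0.234) and 1.76 (SE 0.71, adjusted p = 0.461), and the other 6 members lay between -0.28 and 0.45 with standard errors of 0.52 to 0.96.

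Retina titled control 3 stood apart in the opposite sense. It was the sole retina array with miR-205-5p (signal 27.3, level -6.03) and miR-200b-3p (signal 11.8, level -7.24) detected, while its miR-141-5p was the lowest of the 6. For miR-205-5p 8 of 10 spots of 1 probe were well above background and 0 of 10 of the other. For miR-200b-3p 0 of 10 spots of either probe were, so its call rests on a faint signal. On the same array miR-184-3p had a signal of 8073, against 140.9 to 2230 on the other 5, and the cornea and lens list summed to 500.5 percent of the 75th percentile, against 13.0 to 149. Its miR-203-3p, at -6.00, was level with the other titled controls. The part of cornea or lens RNA in these values was not tested.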

How the data were processed

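Single-colour Agilent arrays measured miRNAs in 24 samples. The intensity values of each spot in the deposited files were, per the file headers, background-subtracted by Agilent Feature Extraction 11.0.1.1 with a detection call per miRNA. The authors also deposited a table of log2 values per probe (column medians 3.18 to 4.07), used as an alternative. Against log2 of the scanner's probe signals its probes above the 75th percentile lay 0.64 to 0.90 higher per array (median), so it runs in the same direction and is not centred; how it treats dim probes is unknown. Columns left unmapped to a sample numbered 0.

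Outlier-marked and control spots were left out, spots averaged per probe, and probes summed per miRNA. Sums were scaled to each array's 75th percentile, taken over miRNAs that every array in a given fit detected (237 for 24 arrays, 288 whole eye, 329 retina, 266 sclera). Values were floored at the median lowest detected signal and log2 transformed. Levels in the text are those of the 24-array fit. miRNAs entered the test when 2 in 3 arrays of some group detected them. Tests used limma 3.58.1 (R 4.3.3; lmFit, eBayes, two-sided, Benjamini-Hochberg, 0.05), which was tested on simulated data. Where all values of a group lie at the floor, the spread is understated. Arms within a tissue were fitted on that tissue alone, and tissues and arm differences on all 24 arrays. An "at least" fold sets the brighter mean against, on each array of the dimmer tissue, that array's lowest detected signal, or the miRNA's value where higher. It holds for this processing only.

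Members and marker lists were chosen with earlier results of these data known. Named miRNAs were the members, the other strands of their hairpins, the 5 most like them by Pearson's r over 24 or 6 sclera arrays, and marker-list miRNAs, plus those said to be chosen afterwards. The likeness over whole eye and over the 6 sclera-detected members was added. Mature and hairpin sequences come from RefSeq on GRCm38.p6, and Python 3.11.15 with numpy 2.4.6 and pandas 2.3.3 read the files. The number of arrays limits the precision. Alternatives changed the background correction, scaling, floor, filter, summary value, slide or replicate block, arm labels and the arrays used.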

Additional observations from a re-analysis of the deposited data

Results flagged for a closer look

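The titled arm effect on miR-141-5p passed the threshold when tissues were set against each other, at 2.66 on the log2 scale for retina minus sclera (limma over 24 arrays, adjusted p = 0.0441) and 2.66 for retina minus whole eye (adjusted p = 0.0143). Both restate the arm difference within retina, which was not called (adjusted p = 0.537), and show no difference between tissues. The values are the same because the strand was undetected on each of the 18 arrays of whole eye and sclera and held at the floor there. In retina, 3 of 3 titled myopia arrays and 1 of 3 titled control arrays had it detected, and the titles of that tissue go against its phenotype field. In 14 groups of whole-eye values, 7 members in 2 arms, no array lay far enough from the others to stand out by Dixon's test.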

How the results depend on the processing

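Members that entered only through the tissue where they were high had to differ between retina and the other tissues, so their repeated calls only describe them. Of the comparisons with retina, each kept 8 called members under all alternatives run but 1, where 7 were called and miR-141-5p was lost. That strand reversed against sclera with normexp (-1.06), was not called with the authors' value table (0.56), and against whole eye was not called with normexp (-0.19). Between whole eye and sclera the count of 0 became 6 with normexp, 1 with the value table, 2 within each slide, 2 without both low sclera arrays (titled control 3 and titled myopia 1), and 0 to 2 with single arrays left out. With normexp miR-200c-3p turned to -0.67, miR-141-3p to -0.56 and miR-203-3p to -0.71. Under normexp 315 of all 426 miRNAs were called lower in whole eye, and miR-141-5p, undetected in both tissues, was among the 6 members called. The 2 low arrays were picked on these same values after seeing the data, and without them miR-200a-3p (-0.69) and miR-429-3p (-0.96) were called lower in whole eye. Between whole-eye arms the count was 1 after quantile normalization and 0 otherwise. Between retina arms it was 0 to 2 and between sclera arms 0 to 0 with arrays left out.

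For the arm effect of retina against sclera the count of 1 became 0 with normexp, all miRNAs as the scaling set, the value table, no detection filter, a floor 1 log2 unit lower, or both low sclera arrays left out, and 0 to 1 with arrays left out. Against whole eye it became 0 with normexp and the value table, and 0 to 1 with arrays left out, where miR-141-5p was -0.061 with normexp. With arms by phenotype field miR-141-5p was -2.66 in both. The ratio of miR-205-5p to miR-429-3p, chosen after seeing the data, was 0.75 within slide 3 and 0.99 to 1.17 with arrays left out. Causes were not tested.

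Deviations of same-numbered arrays had an r of -0.22 to 0.49 in whole eye, -0.22 to 0.64 in retina and -0.37 to -0.10 in sclera. These values cannot show whether such arrays are pairs, and the labels do not say, so the main fits used no pairing. With the replicate block the counts stayed at 8, 8, 0, 0, 0, 0, 1, 1 and 0, and over all miRNAs the arm effect of retina against sclera had 16 calls in place of 7. The planned strand test of miR-141 in retina was not run, as miR-141-3p was detected on 0 of 6 arrays.

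Members at the floor have only a bound. Scaling over all miRNAs took the median difference of every miRNA tested from 0.81 to 0.08 for retina against sclera and from -0.70 to -0.16 for whole eye against retina, where 43.1 percent of calls were then higher in place of 26.1, and 38.5 percent after quantile normalization. Over all miRNAs the calls between whole eye and retina were 375 and with normexp 163, and between whole-eye arms 35, with 22 under normexp, 96 after quantile normalization, 20 within slide 1 and 17 within slide 3. For the arm effects they were 7 against sclera (0 to 16 by setting), 5 against whole eye (0 to 81, the latter with arms by phenotype) and 10 for sclera against whole eye (0 to 19).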

Other observations

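miR-375-3p, a miRNA of endocrine and secretory cells, was detected on all 12 whole-eye and all 6 retina arrays and on no sclera array. It is 1 of 8 miRNAs on a list for ciliated and secretory epithelium. Of these, miR-34b-5p and miR-34c-5p were detected on all 6 sclera arrays and the rest on none. By comparison 6 of the 8 members were detected on all 6 sclera arrays, as were 266 of all 696 miRNAs.

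The whole-eye myopia arrays had a faint miR-200a-5p signal of 2.13 to 16.1 in scanner units, undetected on all 6, against -3.42 to 3.09 on the control arrays. The bright corner spots were also brighter on the myopia arrays, at 226 to 487 against 137 to 229.8, and their part in this signal was not tested.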
